A study of Mus musculus with 12 samples.

Results

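Oocytes that had been ovulated and collected from the oviduct as metaphase II (MII) oocytes were compared between Zar1/2-null and WT females. Every gene listed at 1 FPKM or more (fragments per length of transcript and per total of mapped fragments, scaled by the authors to a spike-in) in at least 1 of the 4 MII libraries entered the comparison, which gave 7245 of the 23230 genes in the table. Of these, 48 were Mir or Snor genes, described apart at the end, and 6883 of the other 7197 were protein-coding in RefSeq. Cntd1, highest at 1.00 FPKM, lay just inside the threshold and D730048J04Rik, highest at 0.999 FPKM, just outside it. Each genotype had 2 MII libraries of 10 oocytes from C57BL6/ICR hybrid females, collected 16 h after hCG. The fully grown germinal vesicle (GV) oocytes set beside them came from females 21 days old in the labels, 44 h after PMSG, again with 2 libraries of 10 oocytes in each genotype. Both genes were disrupted in the germ line by CRISPR-Cas9, Zar1 by a small deletion followed by a stop codon and Zar2 (listed under its symbol Zar1l) by a frameshifting deletion in exon 1. MII is the label of the collection: the study describes ovulated null oocytes as arrested in the first meiotic division, at metaphase or telophase, so that genotype and meiotic stage cannot be told apart here. No label ties a library to particular females, so the p-values measure the spread between libraries, which may be technical.

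ZAR1 and ZAR2 are zinc-finger proteins that bind RNA in the cytoplasm of oocytes. A fully grown oocyte no longer transcribes and lives on a stock of stored mRNA. During maturation most of that stock is deadenylated and removed, while a smaller set of dormant mRNAs, among them cyclin B1, receives a longer poly(A) tail and is translated. Smart-seq2 copies polyadenylated RNA, so a level here is that of the RNA that carried a tail, and spike-in scaling puts it on a scale per library of 10 oocytes. A different number of oocytes in a tube and a different RNA content per oocyte cannot be told apart in such libraries.

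The 3′ ends below stand for the 3 kinds of gene described here: those far more abundant in null MII oocytes, dormant mRNAs that did not pass the test, and those less abundant. Each is a window of 30 bases near the end of the 3′ UTR of an mm9 transcript, 5′ to 3′ on the transcript strand, read from the reference annotation and identical to the mm9 genome. Capitals mark the polyadenylation signal (AATAAA or ATTAAA) and TTTTAT, a form of the cytoplasmic polyadenylation element. The windows of Btg4 and Rnf2 were placed on TTTTAT, since neither signal was in the last 100 bases of their annotated 3′ UTR.
Cox7c (higher), chr13:86184424-86184453, minus strand: gaaaaaattgtaAATAAActaatgacataa
Rpl39 (higher), chrX:34622556-34622585, minus strand: tgtttgtccagtAATAAAatatagaacctt
Atp5e (higher), chr2:174286582-174286611, minus strand: attgactatgccAATAAAttaacatggttc
Uqcr11 (higher), chr10:79865750-79865779, minus strand: gatgggtgcagcATTAAAccttattcttat
Ccnb1 (not called), chr13:101548611-101548640, minus strand: ctttatgttgctAATAAAcatagttttcga
Wee2 (not called), chr6:40416775-40416804, plus strand: cagatcattgtaAATAAAgaTTTTATctta
Tpx2 (not called), chr2:152721028-152721057, plus strand: gtaagccagccccaATTAAAtgttgtttat
Btg4 (not called), chr9:50927902-50927931, plus strand: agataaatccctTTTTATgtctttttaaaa
Ect2 (lower), chr3:26996151-26996180, minus strand: aagaactttgtaAATAAAtagctttaaaat
Ugcg (lower), chr4:59235670-59235699, plus strand: ttttgttgagagAATAAAaaatttgaatac
Rnf2 (lower), chr1:153316563-153316592, minus strand: gaatgtatgtgtTTTTATctgtctatggga
Klhl9 (lower), chr4:88364199-88364228, minus strand: atctctttatatAATAAAattacttaactg

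Before the genes, the libraries were compared as wholes. The listed FPKM values summed to 128281 and 121121 in the WT MII libraries and to 209875 and 176380 in the null MII libraries, and 5688, 6009, 6536 and 6304 genes reached 1 FPKM in the same order. The table holds no counts, so the error of counting behind a value is unknown. The steps between the lowest values gave a depth, relative to WT replicate 1, of 1.28 for WT replicate 2, 1.08 for null replicate 1 and 1.34 for null replicate 2. The depths thus followed the replicate number and not the genotype. Across the 7197 genes, Spearman's rho was 0.979 between the WT replicates, 0.982 between the null replicates and between 0.732 and 0.758 across genotypes, as a description over genes that are not independent. All 12 oocyte markers on the list were measured. Of 22 granulosa and cumulus markers, 10 were listed at 0 in all 4 MII libraries and only Cyp19a1 and Nr5a2 reached 1 FPKM. The summed level of the 22 was 5.22 and 5.57 FPKM in WT and 8.58 and 7.38 FPKM in null libraries, and its part in the results was not tested. Of 9 measured markers of oviduct and other epithelium, Cdh1 and Krt8 reached 1 FPKM. Cdh1 was at 14.2 and 15.1 FPKM in WT and 15.7 and 17.4 FPKM in null libraries. Krt8 was at 0.0547 and 0.0974 FPKM against 1.08 and 0.667 FPKM, which did not pass (adjusted p = 0.080) but passed under 4 alternatives, among them no spike-in factor (adjusted p = 0.0012). None of 13 immune and none of 6 red blood cell markers reached 1 FPKM in an MII library.

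In null MII oocytes, more genes were higher than lower. Of the 7245 genes, 1100 reached 1 FPKM only in null and 548 only in WT MII libraries. Those genes entered through that genotype alone, so the split is not independent of the filter. By limma on log2(FPKM + 1), with Benjamini-Hochberg adjustment over all 11502 genes listed at 1 FPKM or more in any of 12 libraries, 2279 of 7197 genes (31.7%) were higher and 1086 (15.1%) were lower at an adjusted p under 0.05. By a fold of means of more than 3, with means under 1 FPKM set to 1 FPKM, 844 genes (11.7%) were higher and 135 (1.88%) lower. Both null libraries lay above both WT libraries for 3414 genes (47.4%) and below them for 2175 (30.2%). With the Mir and Snor genes counted in, limma gave 2281 higher and 1092 lower, so that 67.6% of its calls were higher. That share was 51.0% without the spike-in factor (2193 higher, 2106 lower) and 51.6% with libraries scaled to their median (2241 and 2104), and the median of all genes moved by -0.19 and -0.18 on the log2 scale. Of the genes past 3-fold, 85.0% were higher with the factor and 74.4% without it. The count of lower genes fell to 690 without WT replicate 2 and to 665 without null replicate 2.

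**Figure D1:**
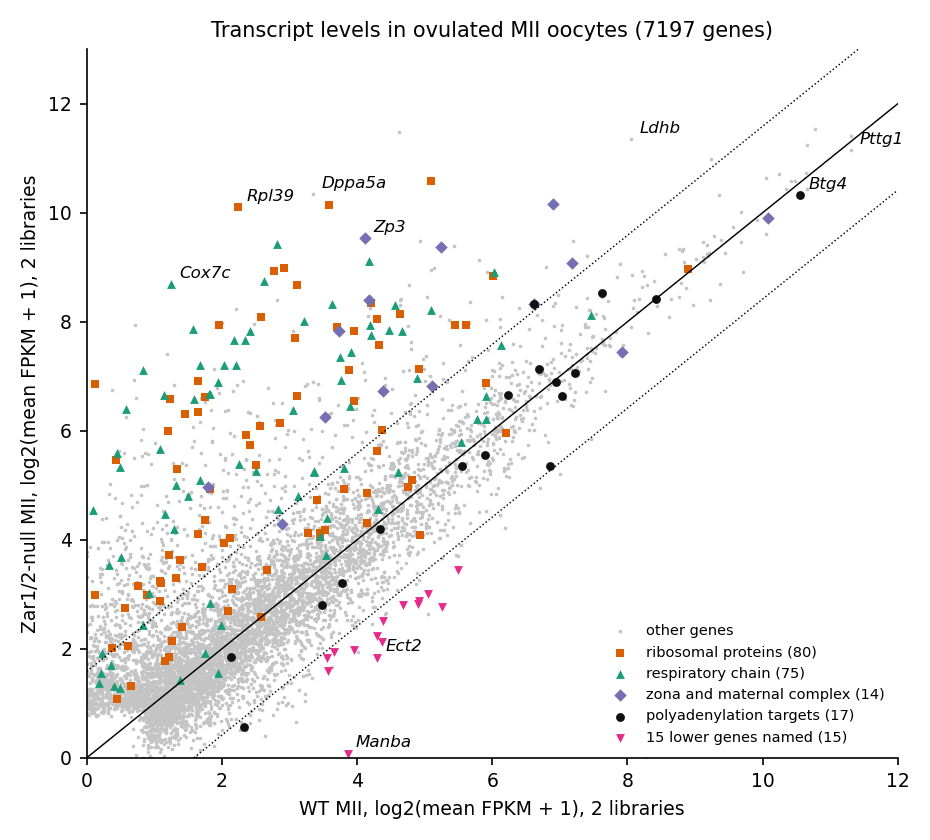
Mean level in the 2 Zar1/2-null MII libraries against the mean in the 2 WT MII libraries, as log2(mean FPKM + 1), for 7197 genes. The solid line marks equal levels and the dotted lines a 3-fold difference. Ribosomal protein and respiratory chain genes fill the upper left, where Cox7c was 301-fold higher in null oocytes, while Pttg1 and Btg4 at the top right lie near the line and Manba lies at the bottom.

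The disrupted genes themselves went in opposite directions. Zar1 mRNA was listed at 83.6 and 72.4 FPKM in WT and at 190 and 194 FPKM in null MII oocytes, a log2 fold change of 1.29 ± 0.20 (SE, adjusted p = 0.00038), although its level in null GV oocytes was below that of WT (439 and 423 FPKM against 136 and 203 FPKM). The Zar1 allele ends translation and leaves most of the transcript, so its level does not check the genotype. Zar1l was listed at 3.13 and 4.72 FPKM in WT and 1.36 and 1.01 FPKM in null MII oocytes (log2 fold change -1.15 ± 0.19, adjusted p = 0.00058). At GV the same gene stood at 533 and 504 FPKM in WT against 20.9 and 19.6 FPKM in null oocytes. For both genes the null libraries lay apart from the WT libraries at either stage.

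The 15 genes named by the largest fold among the higher ones were Cox7c, Rpl39, Dppa5a, Ndufa7, Cst3, Chchd2, Uqcr11, Rps27, Atp5e, Mrpl33, Rps29, Snrpd2, Rps13, Uqcrq and Cox17. All but Dppa5a, an RNA-binding protein of pluripotent cells, and Cst3, the secreted protease inhibitor cystatin C, encode small proteins of ribosomes, mitochondria or splicing particles. Their WT means ran from 0.0916 to 10.95 FPKM and their null means from 95.9 to 1298 FPKM, with folds of 83.4 to 301. Where the WT mean was under 1 FPKM (Ndufa7, Chchd2, Rps27, Mrpl33 and Snrpd2) the fold is a lower bound. Cox7c, a subunit of cytochrome c oxidase, was listed at 1.61 and 1.13 FPKM in WT against 460 and 366 FPKM in null libraries, a log2 fold change of 7.45 ± 0.19 (adjusted p = 9.8e-10). At GV it was at 512 and 437 FPKM in WT and 506 and 398 FPKM in null oocytes. Rpl39, a protein of the large ribosomal subunit, was listed at 3.68 and 3.74 FPKM in WT and at 1238 and 955 FPKM in null MII libraries. Its GV levels were again close, 1925 and 1618 FPKM in WT and 1810 and 1397 FPKM in null oocytes. In both examples the null MII level was closer to the GV levels, and the WT MII level was far below all other groups.

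Dppa5a stood at 8.15 and 10.3 FPKM in WT and 1523 and 1073 FPKM in null MII libraries. Snrpd2, a core Sm protein of the spliceosome, was at 0.694 and 0.610 FPKM against 107 and 85.1 FPKM, a fold of at least 95.9. Cst3 was the only one of the 15 also called higher at GV (3 of the 15 were without the spike-in factor), at 165 and 137 FPKM in WT and 202 and 231 FPKM in null oocytes (adjusted p = 0.045). The share of all genes called higher at GV was 2.4%, and 7.75% without the factor. Rps27 had the widest error of the 15 (adjusted p = 0.011, log2 fold change 6.72 ± 1.73), and its GV replicates were far apart, at 137 and 586 FPKM in WT and 383 and 0.716 FPKM in null oocytes. The E330017A01Rik transcript, outside the naming rule and added after its values were seen, had one of the highest levels of all genes in null MII oocytes, 3112 and 2586 FPKM against 20.9 and 26.3 FPKM in WT.

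**Figure D2:**
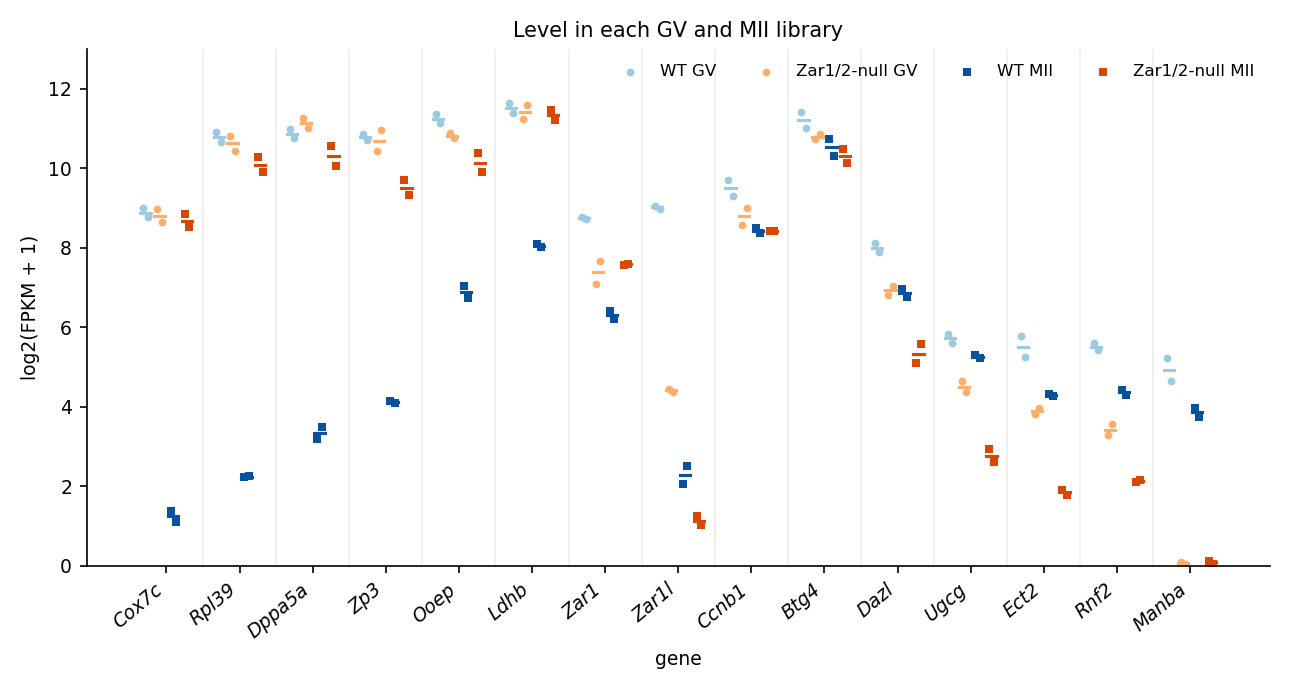
Level of 15 genes in each GV library (circles) and each MII library (squares), as log2(FPKM + 1), with a bar at the mean of the 2 libraries. For Cox7c, Rpl39, Dppa5a, Zp3, Ooep and Ldhb the WT MII points lie far below the other 3 groups, for Ccnb1 and Btg4 the MII points of the genotypes meet, and for Dazl, Ugcg, Ect2, Rnf2 and Manba the null points lie below WT at both stages.

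Cytoplasmic ribosomal proteins were higher nearly as a whole. In the large subunit, 44 of 47 genes were higher against a background of 31.7%, with a median log2 fold change of 2.34 beside 0.15 over all 7197 genes. Rpl4 was the only one lower, at 25.4 and 33.9 FPKM in WT and 17.6 and 14.3 FPKM in null libraries (adjusted p = 0.0040). Rpl17 and Rpl37 did not pass, and Rpl37 was listed at 75.9 and 69.7 FPKM in WT and at 72.0 and 49.9 FPKM in null libraries. In the small subunit, 29 of 33 were higher and none lower, with a median of 2.21. The log2 fold changes of those called ran from 0.62 for Rps27a to 6.72 for Rps27, whose error was wide, and 6.55 for Rps29. The 4 that did not pass were Rps9, Rps15a, Rps16 and Rps27l. In 6 large-subunit and 4 small-subunit genes the WT mean was under 1 FPKM. The 47 large-subunit genes summed to 483 and 458 FPKM in the WT MII libraries and 7392 and 6021 FPKM in the null ones, against 16925 to 20859 FPKM in the 4 GV libraries. Many ribosomal protein genes have processed pseudogenes, and only uniquely mapped reads were kept, so the levels of single genes are uncertain.

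The nuclear-encoded respiratory chain, which carries electrons to oxygen and drives ATP synthesis in mitochondria, had a like pattern. For complex I, 35 of the 36 listed genes reached 1 FPKM, of which 34 were higher and none lower, and the median log2 fold change was 3.20. The shares of all genes were 31.7% higher and 15.1% lower. Ndufa7, an accessory subunit, was listed at 0.866 and 0.685 FPKM in WT and at 148 and 126 FPKM in null libraries. Ndufa10 was the one that did not pass, at 47.4 and 43.3 FPKM against 62.4 and 46.1 FPKM. In complexes II to V, 33 of 40 were higher and none lower (median 3.16). The 7 that did not pass were Atp5a1, Atp5b, Atp5g3, Sdhc, Sdhd, Uqcrc2 and Uqcrfs1, of which Atp5b, the catalytic subunit of ATP synthase, was at 54.7 and 53.1 FPKM in WT and 74.7 and 72.8 FPKM in null libraries. In 11 complex I genes and 4 of complexes II to V the WT mean was under 1 FPKM, so these genes entered through their null level.

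Mitochondrial ribosomal proteins were split, with 54.3% higher beside 31.7% of all genes. Of 70 measured, 38 were higher, 4 lower and 28 not called (median 0.71), and 17 of the 70 had a WT mean under 1 FPKM and entered through their null level. Mrpl33 stood at 0.251 and 0.331 FPKM in WT against 124 and 87.9 FPKM in null libraries, while Mrpl18 stood at 82.3 and 76.3 FPKM against 73.0 and 52.1 FPKM. The 4 that were lower were Mrpl9, Mrpl40, Mrpl50 and Mrpl53, with log2 fold changes between -1.13 and -0.65. Genes coding for one particle thus covered more than 7 units on the log2 scale.

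Other housekeeping groups had higher genes at shares of 39.4% to 75.0%, beside the background of 31.7%. Of 16 RNA polymerase II, elongin and cullin genes, 12 were higher and 2, Cul5 and Polr2h, lower (median 1.49). The small subunit Polr2j was listed at 35.8 and 32.8 FPKM in WT and 565 and 451 FPKM in null libraries. The large subunit Polr2b, at 2.40 and 4.35 FPKM against 3.38 and 2.73 FPKM, overlapped between genotypes. Among 34 proteasome genes, 16 were higher and 2, Psma1 and Psmc6, lower. Psmb5, a catalytic subunit of the core, was at 0.385 and 0.390 FPKM in WT and 56.4 and 41.1 FPKM in null libraries, whereas Psma7, a structural subunit of the same core, was at 252 and 235 FPKM against 240 and 139 FPKM. Among 33 Sm, LSm and splicing factor genes, 13 were higher and 3 (Sf3a1, Sf3b1 and Snrpc) lower, and their median of 0.10, beside 0.15 over all genes, fell below 0 without the spike-in factor. The WT mean was under 1 FPKM in 3 of the proteasome and 4 of the splicing genes. Of 7 CCT chaperonin genes, 3 were higher and 1 lower.

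Of 37 translation factors, 13 were higher (35.1%) and 5 lower, shares near those of all genes (31.7% and 15.1%). Eif3k, a subunit of initiation factor 3, was higher at 135 and 108 FPKM in null libraries against 18.1 and 14.5 FPKM in WT. Eif4b, Eif4a2, Eif5, Eif2s3x and Btf3 were lower. Btf3, which encodes a subunit of the nascent polypeptide-associated complex, is given by choice after its values were seen, since it was lower at MII (210 and 195 FPKM against 112 and 98.1 FPKM) with GV levels that did not pass the test (732 and 625 FPKM against 676 and 615 FPKM). Its difference at MII was below that at GV by 0.87 ± 0.23 on the log2 scale (interaction, adjusted p = 0.015). Naca, the partner of Btf3 in that complex, was higher, with a log2 fold change of 2.18.

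Of 25 genes of glycolysis and the TCA cycle, 8 were higher, a share near the 31.7% of all genes, and 2, Pgam1 and Pdhx, lower. Ldhb, a lactate dehydrogenase subunit, was among the most abundant mRNAs of null MII oocytes, at 2834 and 2372 FPKM against 273 and 257 FPKM in WT. Gapdh and Actb, which are often taken as reference genes, were also higher in null oocytes. Gapdh had a log2 fold change of 1.81 ± 0.14 (adjusted p = 1.5e-06) and Actb one of 1.32 ± 0.19 (adjusted p = 0.00022). Among 21 antioxidant genes, 12 were higher (57.1%) and 2 lower, and the WT mean of 3 of the 21 was under 1 FPKM. Gpx4, which reduces lipid peroxides, stood at 0.986 and 0.662 FPKM in WT and 49.5 and 44.5 FPKM in null libraries, whereas Prdx1 stood at 846 and 660 FPKM against 944 and 765 FPKM. The 2 lower genes were Txn1 and Nfe2l2, which encodes the transcription factor NRF2. Of 41 lysosomal genes, 17 reached 1 FPKM, with 10 higher and 1, Manba, lower, but the WT mean of 7 of the 17 was under 1 FPKM, so that these entered through their null level.

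**Figure D3:**
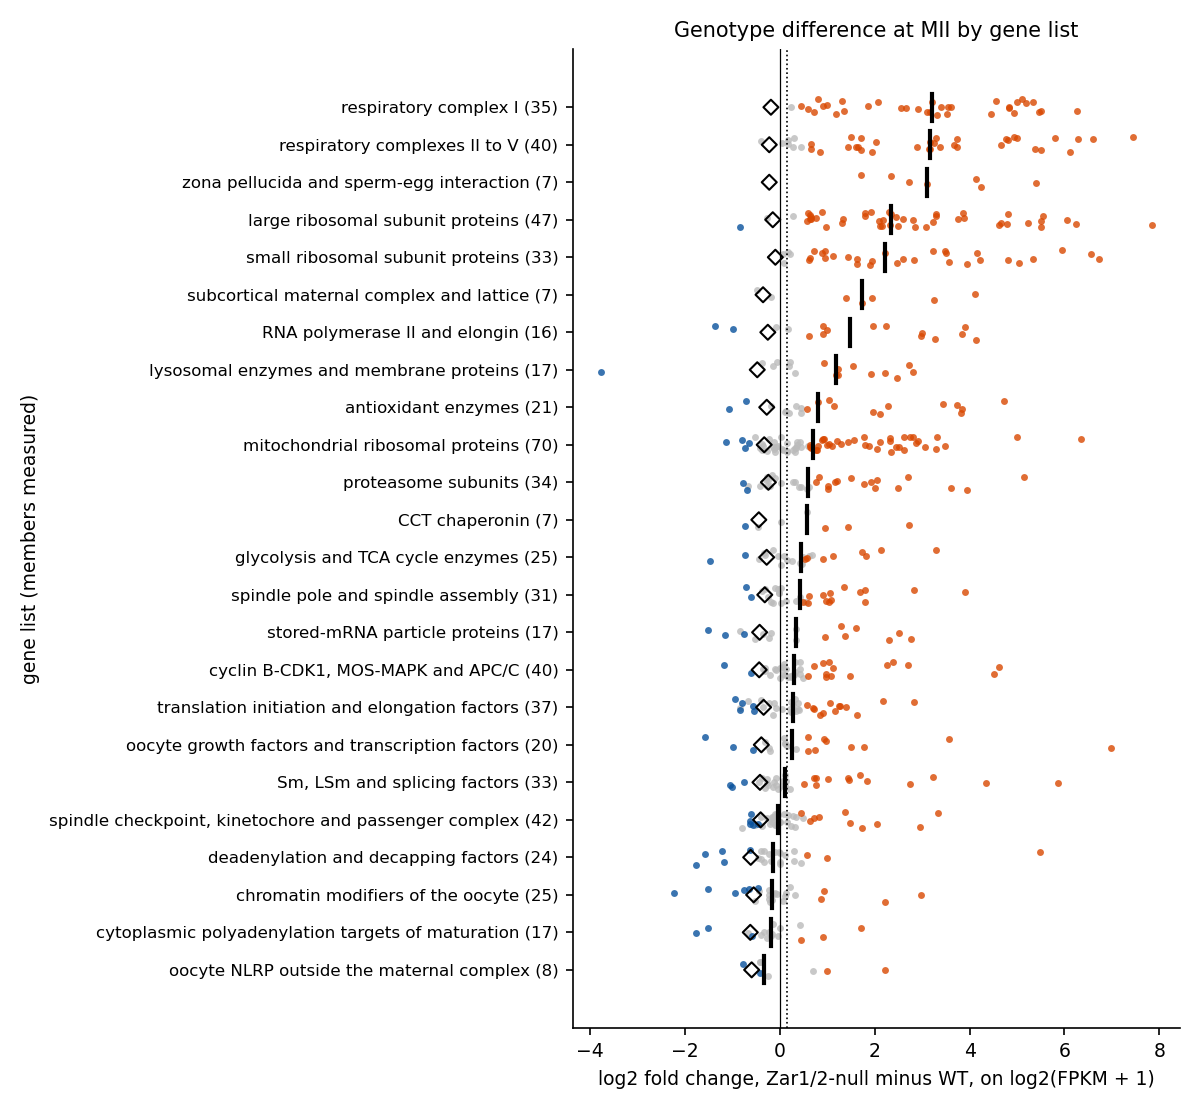
Log2 fold change (Zar1/2-null minus WT, on log2(FPKM + 1)) at MII of each measured gene in 24 lists, ordered by the list median. Red points were called higher and blue points lower by limma, grey points were not called, thick bars are the MII medians, open diamonds the GV medians and the dotted line the median of all 7197 genes at MII (0.15). MII medians run from 3.20 for complex I to -0.34 for the oocyte NLRP genes, and the GV median of every list shown is below 0 on this spike-in scale.

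All 7 measured genes of the zona pellucida and sperm-egg interaction were higher, each by more than 3-fold (median log2 fold change 3.10). The shares of all genes were 31.7% higher and 11.7% more than 3-fold higher. Zp3, the zona protein that serves as a sperm receptor in the mouse, was listed at 16.7 and 16.1 FPKM in WT and at 839 and 639 FPKM in null MII libraries, and at GV its libraries overlapped between genotypes (1862 and 1679 FPKM against 1386 and 1984 FPKM). Zp1 and Zp2 had log2 fold changes of 4.24 and 4.14. Cd9, the egg membrane protein needed for sperm fusion, was 12.3-fold higher, at 40.3 and 20.3 FPKM against 2.75 and 2.19 FPKM. Plat, the tissue plasminogen activator that is released from cortical granules, was 3.29-fold higher.

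In the subcortical maternal complex and the cytoplasmic lattices, on which cleavage of the embryo depends, 5 of 7 genes were higher and none lower. Over all genes, 31.7% were higher and 15.1% lower. Tle6 was listed at 10.7 and 14.1 FPKM in WT and 229 and 227 FPKM in null libraries, and Ooep at 131 and 105 FPKM against 1329 and 955 FPKM. Padi6, required for the lattices, was at 109 and 179 FPKM against 533 and 548 FPKM, a log2 fold change of 1.94 ± 0.24 (adjusted p = 7.0e-05). Nlrp4f and Zbed3 did not pass, and Zbed3 was abundant in both genotypes, at 971 and 1197 FPKM in WT and 829 and 1073 FPKM in null libraries. Of 8 further NLRP genes of the oocyte, 2 were higher and 2 lower. Nlrp14 was at 107 and 113 FPKM against 541 and 491 FPKM. Nlrp4e, listed as lower, passed narrowly (adjusted p = 0.049) and no longer passed when any 1 of the 4 MII libraries was left out.

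A list of growth factors and transcription factors of the oocyte, with others such as H1foo and Bcl2l10, went both ways. Of its 20 genes, 9 were higher and 3 lower, beside 31.7% and 15.1% of all genes. Figla, a transcription factor of the zona genes, stood at 0.276 and 0.687 FPKM in WT and 22.1 and 12.1 FPKM in null libraries. Npm2, a chaperone of histones in the egg, was 3.49-fold higher. Oog1 was 4.26-fold lower, and Kit and Tbpl2 were also lower. Of the 10 genes with the highest level in WT MII oocytes, 5 were on this list (Oosp1, H1foo, Bcl2l10, Rfpl4 and Dppa3), and 8 of the 10 did not pass the test. Pttg1, which encodes securin, led them at 2733 and 2361 FPKM in WT and 2439 and 2091 FPKM in null libraries. Oosp1 followed at 2881 and 2214 FPKM against 2997 and 2446 FPKM. Pttg1 and Btg4, also of the 10, were called lower without the spike-in factor (adjusted p = 0.033 and 0.032). With median scaling neither passed (adjusted p = 0.066 and 0.076). H1foo, the oocyte linker histone, and Bcl2l10 were the 2 of the 10 that passed, with log2 fold changes of 0.75 and 0.59 (adjusted p = 0.0083 and 0.022). Both calls were lost with only the 4 MII libraries (adjusted p = 0.084 for H1foo and 0.13 for Bcl2l10), and that of Bcl2l10 with median scaling (adjusted p = 0.065). Both were also lost without WT replicate 2 and without null replicate 1. The log2 fold changes were then 0.70 and 0.60 for H1foo and 0.48 and 0.50 for Bcl2l10.

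The proteins that store and silence mRNA were mixed as well, with 7 of 17 genes higher and 3 lower. Over all genes the shares were 31.7% and 15.1%. Ybx2 (MSY2), the main RNA-packaging protein of the oocyte, was listed at 0.982 and 1.53 FPKM in WT and at 11.6 and 11.9 FPKM in null MII libraries, a log2 fold change of 2.51 ± 0.22 (adjusted p = 4.6e-06). Pabpc1l, the embryonic poly(A)-binding protein, was 10.1-fold higher and Cpeb1, which binds the cytoplasmic polyadenylation element, was higher by 1.37 on the log2 scale. Dazl, a translational activator of maturation, was lower at 33.0 and 47.1 FPKM against 123 and 107 FPKM in WT. Lsm14b and Zar1l were the other two that were lower.

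Of 17 dormant mRNAs that are polyadenylated during maturation, 3 (Plat, Mos and Bub1b) were higher, against 31.7% of all genes, and 3 (Dazl, Dcp2 and Racgap1) lower, against 15.1%. Their median was -0.19. Ccnb1, which encodes cyclin B1, was at 360 and 328 FPKM in WT and 343 and 341 FPKM in null MII libraries, a log2 fold change of -0.01 ± 0.21 (adjusted p = 1.00). Wee2, a kinase that keeps CDK1 inactive in the egg, was at 74.0 and 73.9 FPKM against 101 and 98.8 FPKM (0.43 ± 0.20, adjusted p = 0.13). Tpx2, a spindle assembly factor, was at 17.1 and 21.5 FPKM against 17.3 and 17.3 FPKM. It did not pass, but was called lower without the spike-in factor (adjusted p = 0.045) and with median scaling (adjusted p = 0.034). Mos, the kinase upstream of MAPK in the egg, was higher at 389 and 351 FPKM against 206 and 187 FPKM. Without the spike-in factor 11 of the 17 were lower and 2 higher, and with median scaling 9 were lower and 2 higher.

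Of the 24 measured genes on a list of deadenylation and decapping factors, 3 were higher, 5 lower and 16 not called (median -0.15). Over all genes, 31.7% were higher and 15.1% lower. The list also holds Paip2, a regulator of translation. Btg4, the adaptor that brings the CCR4-NOT deadenylase to maternal mRNAs, was listed at 1722 and 1275 FPKM in WT and at 1436 and 1124 FPKM in null libraries (-0.22 ± 0.22, adjusted p = 0.52). Cnot7, a catalytic subunit of that deadenylase, was at 135 and 124 FPKM against 101 and 96.3 FPKM (-0.39 ± 0.21, adjusted p = 0.20), and without the spike-in factor both were called lower (adjusted p = 0.032 for Btg4 and 0.0046 for Cnot7). Dcp2, which removes the cap, was at least 4.01-fold lower, at 3.82 and 4.19 FPKM against 0.494 and 0.447 FPKM. Cnot6, another deadenylase subunit, was 3.11-fold lower. The translational inhibitor Paip2 was 54.4-fold higher at 264 and 232 FPKM against 4.74 and 4.37 FPKM, while Paip1 was 3.08-fold lower at 62.9 and 50.9 FPKM against 207 and 144 FPKM.

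The cell cycle lists had higher genes at shares of 23.8% to 45.2%, on both sides of the 31.7% of all genes. Of 40 genes of cyclin B-CDK1, MOS-MAPK and the anaphase-promoting complex, 14 were higher and 2 lower. The WT mean of 5 of the 40 was under 1 FPKM. Mapk3, a MAP kinase, was at 3.16 and 4.19 FPKM in WT and 112 and 115 FPKM in null libraries. Anapc13 and Anapc5, subunits of the anaphase-promoting complex, were 33.4-fold and 8.27-fold higher, and Anapc10 was lower. Fzr1, the CDH1 activator of that complex, was at 0.694 and 1.17 FPKM against 8.43 and 9.77 FPKM. Of 42 genes of the checkpoint, kinetochore and chromosomal passenger complex, 10 were higher and 5 (Dsn1, Mis12, Sgol2, Smc1b and Smc3) lower. Birc5 (survivin) and Aurkb, both of the passenger complex, were 10.3-fold and 5.41-fold higher. Of 31 spindle genes, 14 were higher and 2 (Haus6 and Kif18a) lower, and the tubulins Tubb2a and Tuba1c were 18.2-fold and 9.13-fold higher. Chromatin modifiers of the oocyte had 4 of 25 higher and 6 lower, among them the Polycomb genes Ezh2, Suz12 and Rnf2. No measured gene of 4 early zygotic ones passed.

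The 15 lower genes named by fold were Manba, Ect2, Ugcg, Rnf2, Zfp330, H2afz, Rad21, Klhl9, Atp6v1b2, Amd1, Coq10b, Tra2b, Tmem161b, Cttnbp2nl and Hells. Their folds ran from 4.12 to 13.5, and their WT means from 10.7 to 44.0 FPKM. Manba, which encodes the lysosomal enzyme beta-mannosidase and was lower by at least 13.5-fold, was listed at 14.8 and 12.3 FPKM in WT and at 0.0880 and 0.0212 FPKM in null MII libraries, and at GV at 36.4 and 23.9 FPKM against 0.0668 and 0.0305 FPKM. Ect2, the activator of RhoA in cytokinesis, was at 18.9 and 18.3 FPKM against 2.76 and 2.40 FPKM. Ugcg, which makes glucosylceramide, was at 38.1 and 36.4 FPKM against 6.60 and 5.09 FPKM. Rnf2, the catalytic subunit of Polycomb complex 1, was at 20.5 and 18.7 FPKM against 3.28 and 3.48 FPKM (log2 fold change -2.23 ± 0.14, adjusted p = 3.6e-07). H2afz, the histone variant H2A.Z, and Rad21, a cohesin subunit, were 5.05-fold and 4.92-fold lower. All 15 were also called lower at GV, beside 43.2% of all genes. Without the spike-in factor or with median scaling 14 of them were, beside 13.6% and 11.4% of all genes.

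The same genes in GV oocytes, whose libraries are separate from those of MII, were compared next. Of the 7197 genes, 2.4% were called higher and 43.2% lower at GV, and the median log2 fold change was -0.42 at GV and 0.15 at MII. The GV split rested on the spike-in factors, which were 0.836 and 0.697 in WT and 0.533 and 0.583 in null GV libraries: without them 558 genes were higher and 978 lower at GV (median -0.01), and with median scaling 754 and 819 (median 0.07). Of the 1086 genes lower at MII, 971 (89.4%) were called lower at GV, and their medians were -0.77 at MII and -0.97 at GV. Without the factor 797 of 2098 genes lower at MII (38.0%) were lower at GV, beside 13.6% of all genes, and with median scaling 685 of 2096 (32.7%), beside 11.4%. Of the 2279 genes higher at MII, 1747 were not called at GV, 381 were lower and 151 were higher, with medians of 1.11 at MII and -0.20 at GV. Among genes more than 3-fold higher at MII the median level was 55.1 FPKM in WT and 48.6 FPKM in null oocytes at GV, and 1.53 FPKM in WT and 14.4 FPKM in null oocytes at MII. Ppia and Dad1, added after their values were seen, were of the kind higher at both stages, and Ppia was at 34.6 and 29.3 FPKM against 379 and 319 FPKM at MII and at 415 and 407 FPKM against 788 and 651 FPKM at GV.

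The interaction tested whether the genotype difference at MII differed from that at GV. It passed for 2983 of 7197 genes (41.4%) with a more positive difference at MII and for 34 (0.472%) with a more negative one. Among the large-subunit ribosomal genes 41 of 47 were more positive at MII, among the small-subunit ones 27 of 33, in complex I 33 of 35, in complexes II to V 38 of 40 and in the zona list 7 of 7. Of the polyadenylation targets 4 of 17 were, and of the deadenylation and decapping genes 8 of 24. Without the spike-in factor the split over all genes was 1429 positive and 642 negative, and with median scaling 1382 and 853. The 5 lists named first then had 37, 23, 30, 30 and 7 positive genes without the factor. Of these lists only the large subunit had negative ones, 2. The polyadenylation targets then had 2 positive and 2 negative genes, and the deadenylation and decapping genes 1 positive and 3 negative. The difference for Arid5b, added after its values were seen, was more negative at MII by 3.66 on the log2 scale: it was listed at 0.326 and 0.232 FPKM in WT against 7.88 and 7.49 FPKM in null GV oocytes and at 11.3 and 12.6 FPKM in WT against 5.13 and 6.83 FPKM in null MII oocytes. Ugcg, Hnrnpul2 and Cdk8 were also more negative at MII, by 1.28, 1.41 and 1.15 on the log2 scale, of which the last 2 were likewise added afterwards.

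**Figure D4:**
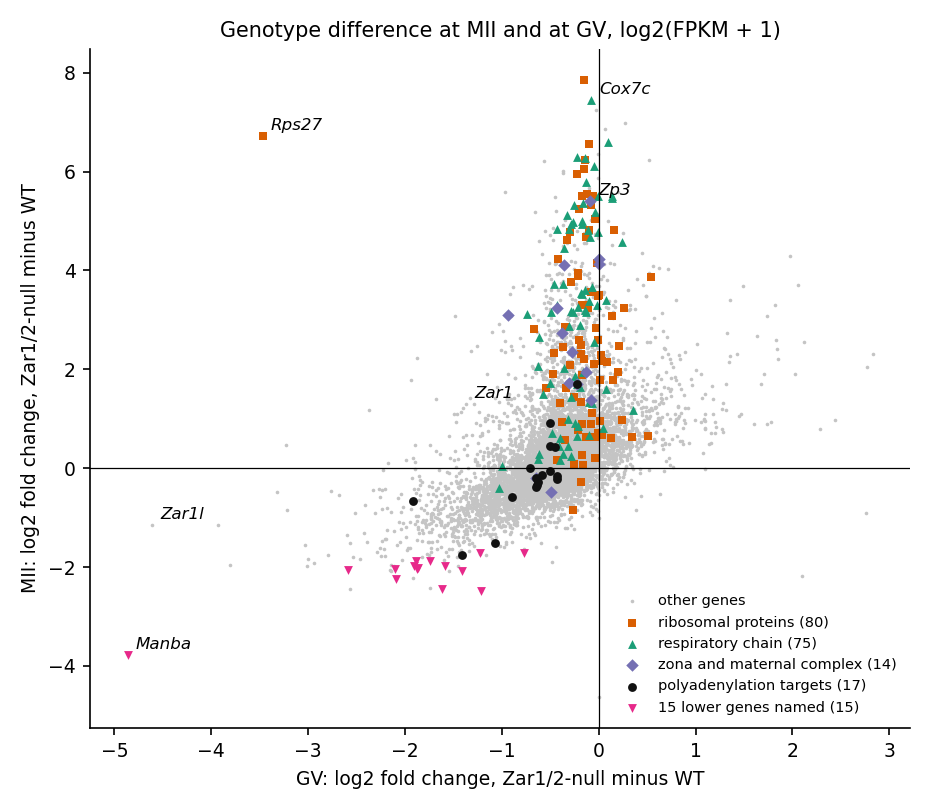
Log2 fold change (Zar1/2-null minus WT) at MII against that at GV for 7197 genes, on log2(FPKM + 1), from separate libraries. Ribosomal, respiratory and zona genes spread upward on the MII axis near 0 on the GV axis, apart from Rps27, whose GV replicates disagreed, and the 15 lower genes named sit at the lower left, with Manba at -4.86 at GV and -3.78 at MII.

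Transcript features were described with 1 mm9 coding transcript for each of 6892 genes, with no test, since genes are not replicates. Genes more than 3-fold higher and called had a median transcript length of 1201 bases, a median coding length of 584 bases, a median 3′ UTR of 287 bases and a median GC content of 53.4%. Genes not called had medians of 2903, 1443 and 897 bases and 48.3%. Genes more than 3-fold lower and called had medians of 3096, 1269 and 1300 bases and 44.2%. From the quintile (5 groups of near equal size) of genes with the shortest coding sequence (114 to 657 bases) to that with the longest (2343 bases or more), the median log2 fold change at MII fell from 0.71 to -0.10 and the share called higher from 54.6% to 13.4%. At GV the corresponding medians were -0.29 and -0.55. The pattern was also seen without the ribosomal and respiratory lists, where 50.4% of the remaining 1220 genes of the shortest quintile were higher, with a median of 0.59.

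By 3′ UTR length the median went from 0.59 in the shortest quintile to -0.17 in the longest, and by GC content from -0.26 in the lowest quintile to 0.71 in the highest. The GC gradient was present within every quintile of 3′ UTR length, from -0.02 to 0.98 in the shortest quintile and from -0.36 to 0.32 in the longest, where the highest GC class held 65 genes. Spearman's rho of the MII fold change across the 6892 genes was -0.32 with coding length, -0.35 with 3′ UTR length and 0.44 with GC content. Replicates of one genotype also differed along these axes, by less: replicate 2 minus replicate 1 ran from -0.05 to 0.17 across the coding length quintiles in WT and from -0.24 to 0.03 in null MII oocytes, and its part in the gradient was not tested. With the genes restricted to a mean of 10 FPKM or more in both GV groups, the coding length medians were 0.89 in the shortest and -0.05 in the longest quintile.

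**Figure D5:**
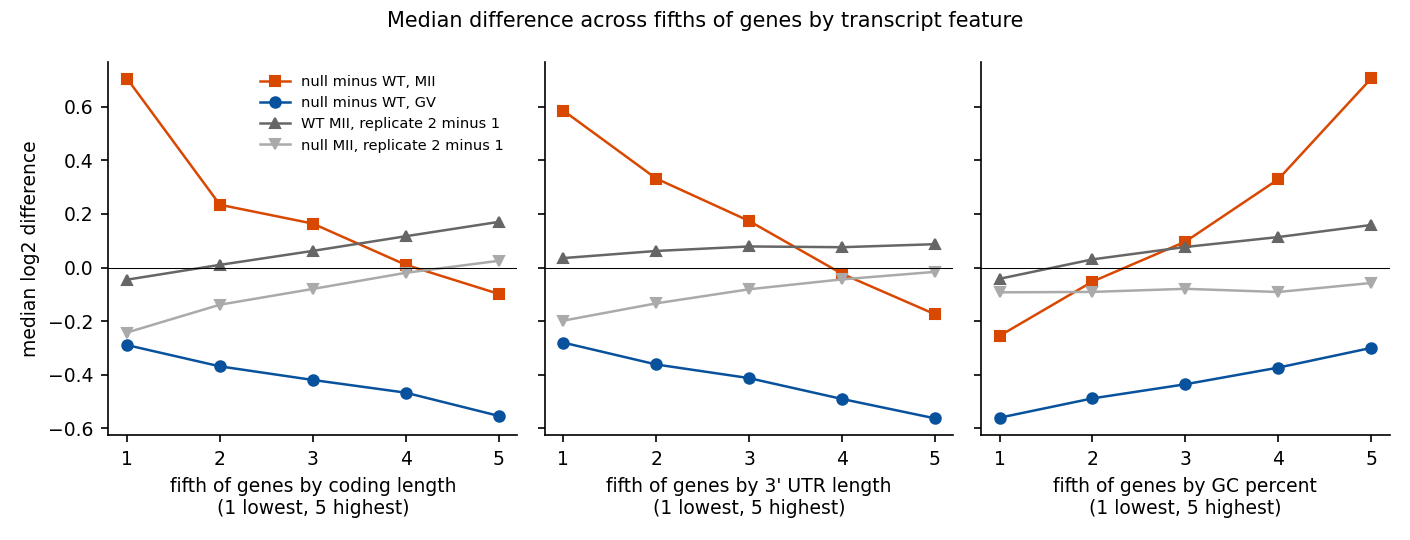
Median log2 difference in quintiles of 6892 genes by coding length, 3′ UTR length and GC content, for the genotype difference at MII (squares) and GV (circles) and for replicate 2 minus replicate 1 within each genotype at MII (triangles). The MII medians fall from 0.71 to -0.10 with coding length and rise from -0.26 to 0.71 with GC content, over a wider range than the GV medians and the replicate differences.

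The motifs capitalised in the windows above were counted on the transcript strand in the last 100 bases of the 6298 3′ UTRs of at least that length. TTTTAT was present in 17.4% of all. It was in 6.56% of genes more than 3-fold higher, 17.7% of those higher by less and 18.5% of genes not called. Among lower genes it was in 19.7% of those up to 3-fold lower and 22.3% of those more than 3-fold lower. The median GC content of the 3′ UTR was 42.7% in all genes, 46.4% in those more than 3-fold higher and 46.1% in those higher by less. AATAAA or ATTAAA was present in 82.6% of all. It was in 76.8% of genes more than 3-fold higher, 83.1% of those higher by less and 83.9% of genes not called. Among lower genes it was in 80.9% of those up to 3-fold lower and 85.1% of those more than 3-fold lower. Across the whole 3′ UTR, whose length differs between the groups, ATTTA was found in 42.9% of genes more than 3-fold higher and 88.4% of those more than 3-fold lower. Of the 12 genes shown, TTTTAT was in the last 100 bases of Wee2, Btg4, Ugcg and Rnf2, and not in those of the other 2 uncalled genes (Ccnb1 and Tpx2), the other 2 lower genes (Ect2 and Klhl9) or the 4 higher genes. A match describes these letters in the annotated transcript and no site in use.

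The 48 Mir and Snor genes were kept apart because their replicates often lay far apart. In 39 of them at least 1 MII library was listed at 0, compared with 67 of the other 7197 genes. The WT replicates were more than 3-fold apart in 16 and the null replicates in 28, against 2 and 2 of the other genes. By limma, 2 were higher (4.17%) and 6 lower (12.5%). Mir762 was listed at 905 and 1131 FPKM in WT and 3045 and 2084 FPKM in null libraries (adjusted p = 0.030), and Mir1892 at 259 and 0.258 FPKM against 842 and 624 FPKM (adjusted p = 0.031). Mir3091 was at 143 and 75.4 FPKM against 554 and 401 FPKM and did not pass (adjusted p = 0.62). Mir678 was at 145 and 116 FPKM in WT and listed at or near 0 in both null libraries (adjusted p = 0.029), but 1 null GV library was also near 0 while the other was at 363 FPKM. Mir3069 and Mir1306 were above 1 FPKM in 1 WT library alone and did not pass. Snora3, outside the naming rule and added after its values were seen, was at 10.97 and 13.02 FPKM in WT and at 0 in both null MII and both null GV libraries. Oligo(dT)-primed libraries do not capture mature miRNAs or snoRNAs by design, so these values stand for the listed gene models and not for the mature RNAs.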

How the data were processed

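Levels were measured by Smart-seq2 in 12 libraries, 2 for each of 6 groups (growing, GV and MII oocytes, WT and Zar1/2-null). The authors trimmed the reads, aligned them to mm9 with TopHat2 2.1.1, kept uniquely mapped reads, computed FPKM with Cufflinks 2.2.1 and multiplied each library by an ERCC spike-in factor before the table was deposited as FPKM values. Counts were not used here. The study reports total reads for each library, but the relative depths given above came only from the steps between the lowest values. From these values, log2(FPKM + 1) was fitted with limma 3.58.1 in R 4.3.3 over all 12 libraries and 11502 genes at 1 FPKM or more in any library, with an intensity trend and Benjamini-Hochberg adjustment at 0.05. All adjusted p-values are two-sided and from this fit. The contrast was null minus WT at MII, and the interaction subtracted the same contrast at GV. The fold rule used means floored at 1 FPKM and a threshold of 3. With 2 libraries against 2, an exact permutation test cannot give a p below 0.333, so none was used.

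Named genes were 11 fixed names, up to 4 called and 2 abundant uncalled genes of each of 30 lists, the 15 higher and 15 lower genes by fold (mean of 10 FPKM or more in the higher group, libraries not overlapping, no Mir, Snor, Gm or Rik symbols), the 10 highest in WT MII oocytes, and 3 Mir or Snor genes in each direction. Other genes, such as the few exceptions of a list, were named after their values were seen. The members and lists were chosen with earlier results of these data known. Transcript features and 3′ ends came from GENCODE models of mm9, and symbols and gene types from RefSeq. Alternatives were the scaling, the pseudocount or floor, a filter on means, the Mir and Snor genes left out, a replicate block, no trend, only the 4 MII libraries, and each MII library left out. The scaling of the GV split and of the sign of the interaction was added after seeing the data. One lower gene of the cell cycle lists is not reported here.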

Additional observations from a re-analysis of the deposited data

Results flagged for a closer look

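Among the 11 genes fixed by name, Zar1, Zar1l, Wee2, Ybx2, Padi6, Actb and Gapdh had a genotype difference at MII that differed from that at GV by the interaction in limma, each with a more positive null-minus-WT difference at MII, as had 41.4% of all genes. Zar1 differed by 2.66 ± 0.28 on the log2 scale (SE, adjusted p = 3.0e-05) and Zar1l by 3.46 ± 0.26 (adjusted p = 2.7e-06). Ybx2 differed by 2.63 ± 0.31 (adjusted p = 8.2e-05) and Padi6 by 2.08 ± 0.34 (adjusted p = 0.00082). Wee2, which did not pass at MII itself (adjusted p = 0.13), differed by 0.87 ± 0.28 (adjusted p = 0.032). Actb and Gapdh differed by 1.22 and 1.17 (adjusted p = 0.0051 and 0.0011). Without the spike-in factor, Wee2 and Actb no longer passed, at 0.19 and 0.62 (adjusted p = 0.56 and 0.071), nor with median scaling, at 0.11 and 0.54 (adjusted p = 0.76 and 0.11), and the other 5 passed under both.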

How the results depend on the processing

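With the Mir and Snor genes counted in, the counts were 2281 higher, 1092 lower, 862 more than 3-fold higher, 152 more than 3-fold lower and 3022 by the interaction. Without the ERCC factor 2106 genes were lower and 395 more than 3-fold lower, and with median scaling 2104 and 374. With a floor of 0.1 FPKM, 1314 genes were more than 3-fold higher and 285 lower, and with a mean of at least 5 FPKM, 558 and 69, where fewer genes were tested. With 1 MII library left out, the count of higher genes ran from 1738 to 1968, of lower genes from 665 to 844, of 3-fold higher genes from 789 to 930, of 3-fold lower genes from 145 to 167 and of the interaction from 2112 to 2677. The lone library of a group is then assumed to vary like the other groups. The cause of these shifts was not tested. With the replicate block the counts were 2369 higher, 1166 lower and 3171 by the interaction. No label says that libraries of the same number belong together. Replicate deviations correlated between -0.12 and 0.16 across groups, and 0.09 between WT and null MII. The spike-in factor was 1 in both WT growing libraries, and the MII depths followed the replicate number. Whether libraries of the same number shared a step was not tested. Of 123 called genes that the text could name, 118 kept their direction and their side of the threshold under every alternative they entered, and 2 of the 123 did not enter the fit with a mean of at least 5 FPKM. The exceptions were Bcl2l10, H1foo, Nlrp4e, Nlrp9b and Rps27, and none reversed. Of 26 list medians, 1 changed sign with the scaling.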
